A study of Mus musculus with 32 samples.

Results

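The 10 genes followed carry iron into, within and out of cells or sense it: Tfrc, Slc11a2 and Steap3 for uptake, Fth1, Ftl1 and Ncoa4 for storage and its release, Slc40a1 and Cp for export, and Aco1 and Ireb2, which encode the proteins that sense iron. They were chosen by name, and 10 of 10 were found among the 23284 genes of both deposited count tables. All 10 passed the filter on low counts, which left 14993 genes in lesions and 14496 in cultures. RNA was sequenced from brachiocephalic arteries with atherosclerotic lesions of C57BL/6 mice kept on a Western diet for 18 weeks, 4 of them wild type (WT) and 4 Oct4 -/- (KO, lacking the pluripotency factor OCT4). It was also sequenced from primary aortic smooth muscle cells, 1 WT and 1 KO line, treated with vehicle or with POVPC, an oxidised phospholipid found in lesions, in normoxia or in hypoxia at 1% oxygen. The 8 culture groups had 3 libraries each. The animals' ages, the cells in which Oct4 was deleted, the dose of POVPC and the hours of hypoxia are not given in the sources used here. Each genotype in culture is 1 line, so genotype and line cannot be told apart there. Nothing says whether the 3 libraries of a culture group came from separate cultures, and p-values then measure the spread between these libraries, which may be technical.

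Cells take up iron bound to transferrin through the transferrin receptor, encoded by Tfrc. In the endosome STEAP3 reduces the iron and the transporter DMT1, encoded by Slc11a2, passes it to the cytosol. Ferritin, a shell of heavy (Fth1) and light (Ftl1) chains, stores iron that is not used at once, and NCOA4 carries ferritin to the lysosome when iron is to be released. Ferroportin, encoded by Slc40a1, is the known cellular iron exporter, and ceruloplasmin, encoded by Cp, is a copper oxidase that converts exported iron to the form transferrin binds. The iron regulatory proteins, encoded by Aco1 and Ireb2, bind a stem-loop called the iron-responsive element when iron is scarce. Bound near the 5′ end of a ferritin or ferroportin mRNA they hold back translation, and bound near the 3′ end of the Tfrc mRNA they slow its decay. Much of this control therefore acts on translation, which RNA counts do not measure.

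A search of the GENCODE M21 coding transcripts for a strict pattern of this element found a match in 4 of the 10 genes. The search asked for an unpaired C, a stem of 5 paired bases, the loop CAGTGN with N not G, and at least 4 of 6 pairs below the C. Elements with a mispaired stem or another loop would be missed, so a gene without a match may still carry one. Among 21877 coding gene symbols 35 matched, or 0.160%. The matches in the ferritin and ferroportin mRNAs lie close to the 5′ end, at bases 87 to 116 of 929 in Fth1, 78 to 107 of 968 in Ftl1 and 90 to 119 of 3370 in Slc40a1. Those of Tfrc lie at bases 3315 to 3344, 3694 to 3723, 3759 to 3788 and 3806 to 3835 of 4890. Tfrc was the 1 symbol with at least 4 matches. The unpaired C and the loop are in capitals, and the runs show the elements through which these RNAs are known to be read.
Fth1: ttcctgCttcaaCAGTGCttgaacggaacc
Ftl1: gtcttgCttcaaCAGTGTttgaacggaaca
Slc40a1: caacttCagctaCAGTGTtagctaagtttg
Tfrc 1: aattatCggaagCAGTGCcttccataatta
Tfrc 2: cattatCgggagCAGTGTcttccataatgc
Tfrc 3: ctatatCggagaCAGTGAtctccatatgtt
Tfrc 4: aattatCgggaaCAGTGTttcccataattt

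Hypoxia-inducible factors bind DNA at cores that include ACGTG, the only one searched for here, and Tfrc is a known target of them. In RefSeq promoter windows of 300 bases (build GRCm38.p6), searched on both strands, ACGTG was found in 2 of the 8 genes that have a window, against 21.8% of 27025 genes of the table. Counted by window it was in 4 of 16, against 19.6% of 32851. In Tfrc the printed run that holds it lies at chr16:32608882-32608911 on the plus strand. The core begins 2 bases before one annotated start, and so runs across it, and 228 before another. In Ncoa4 the printed runs lie at chr14:32159804-32159833, with the core read on the opposite strand and beginning 71 bases before a start, and at chr14:32165709-32165738, with the core beginning 68 bases before another. The core is in capitals, and the runs show the 2 genes in which it was found.
Tfrc: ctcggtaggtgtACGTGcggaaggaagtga
Ncoa4 1: actgcatgcctcCACGTtgagctctaagaa
Ncoa4 2: agggggagggagACGTGacgcgcgcaaggc

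On the authors' build, mm9, the counted exons of Fth1 span chr19:10057193-10059582, of Ftl1 chr7:52713314-52715256, of Tfrc chr16:32608982-32632880 and of Slc40a1 chr1:45964915-45982439. Those of Slc11a2 span chr15:100218331-100253486, of Steap3 chr1:122122993-122167659, of Ncoa4 chr14:32973078-32992549 and of Cp chr3:19857054-19907609. Aco1 lies at chr4:40090298-40146042 and Ireb2 at chr9:54711562-54760341. Both ferritin genes have near-identical copies elsewhere in the genome, and reads that map to several places were not counted, so their absolute levels are uncertain. The count set aside as mapping to several places was 0.743 to 9.24 times the assigned count in cultures and 0.825 to 1.04 times in lesions. That count may hold 1 read more than once, so the ratio is not a share of reads. The ratio was highest, at 5.79, 9.24 and 8.07, in the 3 shallowest culture libraries, which were WT POVPC hypoxia 1 and 2 and KO vehicle hypoxia 3.

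Assigned totals were 6526099 to 11137414 fragments in lesions and 8063121 to 30231799 reads in cultures. Pou5f1, the gene of OCT4, had 0 to 3 counts in any library, and 1 of 8 lesion and 3 of 24 culture libraries had any, so its counts do not check the genotype labels. Summed over 8 smooth muscle markers, the level in CPM (counts scaled to a common library total with TMM factors) was 313 to 368 in WT vehicle normoxia and 128 to 182 in KO vehicle normoxia. It was 69.6 to 81.2 and 68.2 to 72.5 in the matching hypoxia groups, against 5545 to 8410.0 in WT lesions. Among the 8 markers in cultures, Acta2 had 114 to 8820 counts, Smtn 120 to 3545, Lmod1 16 to 1090 and Tagln 16 to 705, while Myh11 had 1 to 159, Cnn1 0 to 56, Myocd 0 to 31 and Des 0 to 6. The 11 macrophage markers summed to no more than 63.9 CPM in any culture library.

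Per exonic base, the ferritin mRNAs were the most abundant of the 10 in every group, and ferroportin was among the scarcest. In WT vehicle normoxia Fth1 stood at 482 ± 40.8 RPKM (CPM per kilobase of exon, mean ± SD, n = 3), Ftl1 at 169 ± 10.002 RPKM and Cp at 69.3 ± 0.849 RPKM. Ireb2 (13.2 ± 0.0372 RPKM), Slc11a2 (12.8 ± 0.473), Aco1 (10.7 ± 0.68) and Ncoa4 (8.88 ± 0.0896) followed. Tfrc was at 3.27 ± 0.091 RPKM, Steap3 at 1.04 ± 0.193 and Slc40a1 at 0.532 ± 0.0765. In WT lesions Tfrc ranked 4 at 32.3 ± 8.58 RPKM (n = 4), and Slc40a1 was again last at 8.97 ± 2.32 RPKM. Across the means of the 8 culture groups, the highest was 32.3 times the lowest for Tfrc and 22.2 times for Cp, against 2.4 times for Ncoa4 and 1.39 times for Ireb2. The plot of culture levels shows this range.

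**Figure D1:**
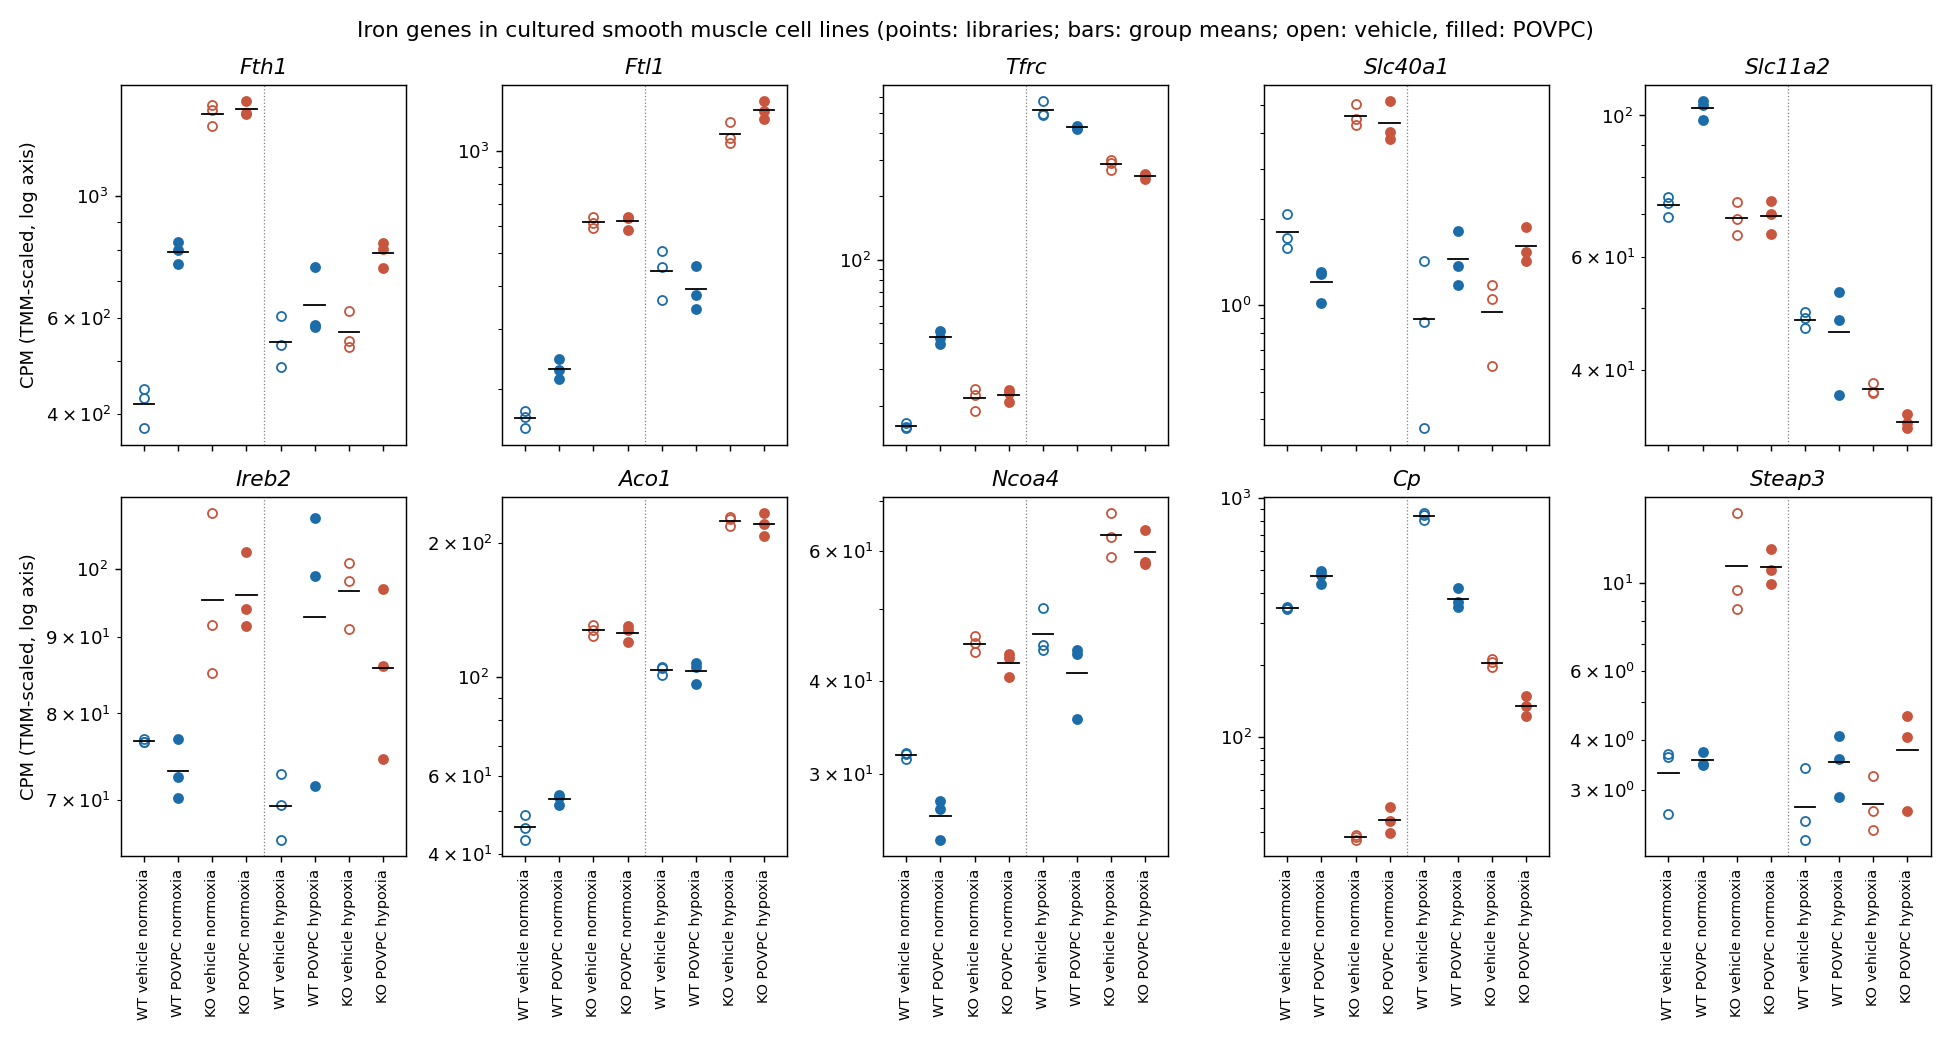
Level of each of the 10 iron genes in the 24 culture libraries, in TMM-scaled CPM on a log axis, by group on the horizontal axis. Points are libraries and bars are group means, blue for WT and red for KO, open for vehicle and filled for POVPC. Tfrc rises from 16.1 ± 0.447 CPM in WT vehicle normoxia to 519 ± 43.8 CPM in WT vehicle hypoxia (SD, n = 3).

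Hypoxia gave the largest change of the set, in the transferrin receptor. Tfrc was at 16.6, 16 and 15.7 CPM in the 3 WT vehicle libraries in normoxia and at 569, 497 and 490.0 CPM in hypoxia. In the KO line it was at 24.2, 18.9 and 22.5 CPM in normoxia and at 269, 299 and 288 CPM in hypoxia. Every hypoxic library lay far above every normoxic one, a rise of 32.3-fold in WT cells (log2 fold change 5.01 ± 0.09 SE, edgeR adjusted p = 3.42e-26) and of 13-fold in KO cells (log2 3.70 ± 0.09, edgeR adjusted p = 1.11e-23). In the WT vehicle comparison Tfrc ranked 3 of 14496 genes by p. With POVPC the log2 fold change was 3.33 ± 0.09 in WT and 3.47 ± 0.09 in KO cells. The rise with vehicle was smaller in the KO line, by a log2 difference of -1.31 (edgeR adjusted p = 2.93e-10), whereas with POVPC the difference between the lines was 0.14 ± 0.11 and missed the threshold (edgeR adjusted p = 0.384). In order of level, KO vehicle and KO POVPC in normoxia overlapped, and in hypoxia both KO groups lay below both WT groups.

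Slc11a2, the endosomal iron transporter, fell with hypoxia in both lines, and Steap3 fell in the KO line. Slc11a2 was at 74.7, 73.1 and 69.5 CPM in WT vehicle normoxia and 48.1, 46.5 and 49.2 CPM in hypoxia, and at 65, 69 and 73.1 CPM in normoxia and 36.8, 36.9 and 38.1 CPM in hypoxia in the KO line. The groups did not overlap in either line, and Slc11a2 fell in all 4 hypoxia comparisons, with log2 fold changes of -0.59 and -1.15 in WT and -0.89 and -1.07 in KO cells (vehicle, then POVPC). Steap3, the endosomal iron reductase, was scarce in culture. It was at 8.56, 9.6 and 15 CPM in KO vehicle normoxia and 2.66, 2.38 and 3.26 CPM in KO vehicle hypoxia, and fell by 2.04 on the log2 scale (edgeR adjusted p = 5.43e-09). In WT cells it was at 3.64, 3.69 and 2.6 CPM in normoxia and 2.24, 3.4 and 2.5 CPM in hypoxia, which overlapped, and did not pass the test (-0.31 ± 0.23). The difference between the lines in this response passed the test with vehicle (-1.72 ± 0.32, edgeR adjusted p = 8.51e-05) and with POVPC (-1.50).

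The 2 ferritin chains parted in hypoxia. Ftl1, the light chain, was at 153, 173 and 166 CPM in WT vehicle normoxia and 364, 508 and 457 CPM in hypoxia, and at 593, 642 and 616 CPM in normoxia and 1214, 1054 and 1089.7 CPM in hypoxia in the KO line. It rose in all 4 hypoxia comparisons, by 1.44 (WT vehicle), 0.79 (WT POVPC), 0.86 (KO vehicle) and 1.08 (KO POVPC) on the log2 scale. Fth1, the heavy chain with the iron-oxidising site, was at 445, 429 and 377 CPM in WT vehicle normoxia and 535, 488 and 606 CPM in hypoxia. In the KO line it was at 1345, 1467 and 1439.9 CPM in normoxia and 617, 532 and 545 CPM in hypoxia. Fth1 thus rose with hypoxia in WT vehicle cells (0.38 ± 0.09, edgeR adjusted p = 4.84e-04) and fell in KO vehicle cells (-1.33 ± 0.09, edgeR adjusted p = 2.30e-13), and the difference between the lines was -1.71 ± 0.13 (edgeR adjusted p = 1.02e-11). With POVPC it fell in both lines (-0.32 in WT, -0.87 in KO). The WT rise lost its call when only library size was scaled (0.20, edgeR adjusted p = 0.139). Leaving out the 3 shallowest culture libraries leaves WT POVPC hypoxia with replicate 3 alone, which the fit takes to vary like the other groups. On that 1 library the WT fall with POVPC lost its call (-0.070, edgeR adjusted p = 0.617).

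Within each library the ratio of Fth1 to Ftl1 counts per exonic base, which needs no scaling between libraries, showed the same parting. It was 3.25, 2.78 and 2.55 in WT vehicle normoxia and 1.65, 1.08 and 1.48 in hypoxia. In KO cells it was 2.54, 2.56 and 2.62 in normoxia and 0.569, 0.565 and 0.561 in hypoxia, so heavy-chain counts per base exceeded light-chain counts in all 3 libraries in normoxia and fell below them in all 3 in hypoxia. With POVPC the mean went from 3.89 ± 0.1 to 1.8 ± 0.0932 in WT and from 2.6 ± 0.113 to 0.673 ± 0.0613 in KO cells (SD, n = 3). The ratio of Tfrc to Fth1, receptor against store, went from 0.00681 ± 4.42e-04 to 0.17 ± 0.024 in WT vehicle cells and from 0.00274 ± 4.54e-04 to 0.0897 ± 0.0116 in KO vehicle cells. Since reads shared with ferritin copies were not counted, the level of each ratio is uncertain.

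**Figure D2:**
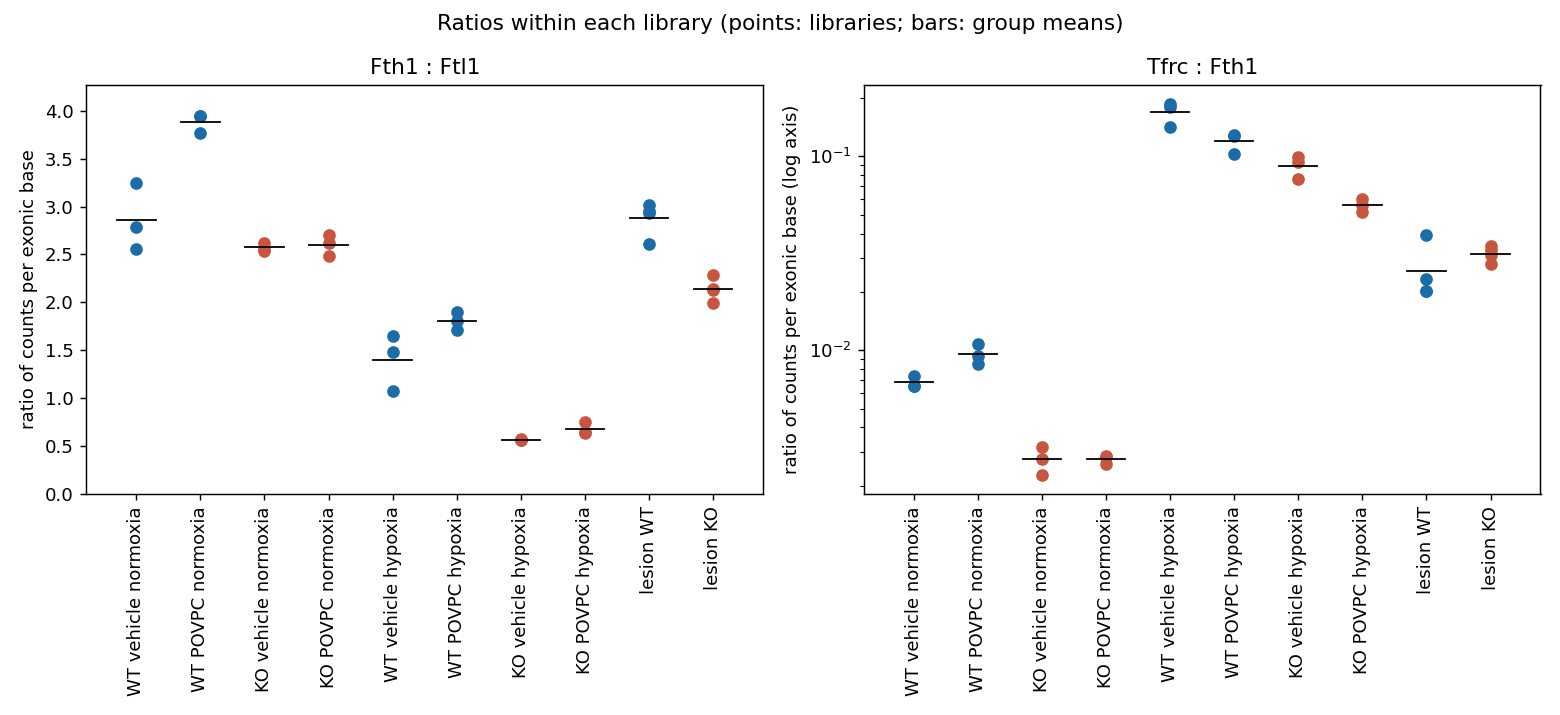
Ratio of Fth1 to Ftl1 (left) and of Tfrc to Fth1 (right, log axis) counts per exonic base within each of the 32 libraries, by group. Points are libraries, bars are group means, blue for WT and red for KO. The Fth1 to Ftl1 ratio is 2.57 ± 0.0413 in KO vehicle normoxia and 0.565 ± 0.00429 in KO vehicle hypoxia (SD, n = 3).

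Ncoa4, the ferritin receptor for lysosomal release, rose modestly in all 4 hypoxia comparisons, by 0.54 and 0.64 in WT and 0.49 and 0.50 in KO cells on the log2 scale (vehicle, then POVPC). Its levels with vehicle were 31.9, 32 and 31.4 CPM in WT normoxia, 50.2, 44.7 and 44 CPM in WT hypoxia, 43.7, 45.1 and 46 CPM in KO normoxia and 62.6, 67.4 and 58.8 CPM in KO hypoxia. The normoxic and hypoxic libraries did not overlap in either line.

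The export genes also differed from each other. Slc40a1 was at 4.25, 4.47 and 5.06 CPM in KO vehicle normoxia and 1.18, 1.05 and 0.611 CPM in KO vehicle hypoxia, a fall of 4.56-fold (log2 -2.19 ± 0.30, edgeR adjusted p = 2.60e-07). In WT vehicle cells it was at 2.09, 1.72 and 1.59 CPM in normoxia and 0.876, 1.43 and 0.372 CPM in hypoxia and fell by 1.09 on the log2 scale, while in WT POVPC cells it did not pass the test (0.24 ± 0.33). These levels rest on 6 to 162 reads a library, so the errors are wide. Cp, whose product oxidises exported iron, was at 342, 350.0 and 346 CPM in WT vehicle normoxia and 849.9, 808 and 865 CPM in hypoxia, and at 38.7, 36.9 and 38 CPM in normoxia and 212, 196 and 205 CPM in hypoxia in the KO line. It rose by 1.28 ± 0.08 in WT and by 2.43 ± 0.09 in KO vehicle cells on the log2 scale. With POVPC it rose in KO cells (1.59) and fell in WT cells (-0.31 ± 0.08), a call that was lost without the 3 shallowest libraries, where WT POVPC hypoxia is 1 library (-0.14, edgeR adjusted p = 0.312). The difference between the lines in the Cp response was 1.15 ± 0.12 with vehicle and 1.91 ± 0.12 with POVPC, and both passed the test.

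Of the 2 sensors, Aco1 rose in each hypoxia comparison and Ireb2 in 1 of 4. Aco1 encodes a protein that is a cytosolic aconitase when it holds an iron-sulfur cluster and an iron regulatory protein when it does not. It was at 43.1, 49 and 46 CPM in WT vehicle normoxia and 105, 106 and 101 CPM in hypoxia, and at 131, 128 and 124 CPM in normoxia and 229.5, 227 and 219 CPM in hypoxia in the KO line. The groups did not overlap, and Aco1 rose in all 4 hypoxia comparisons, by 0.81 to 1.18 on the log2 scale. Ireb2 was at 76.6, 76.9 and 76.5 CPM in normoxia and 65.8, 72.8 and 69.5 CPM in hypoxia in WT vehicle cells and did not pass the test in 3 of 4 hypoxia comparisons. With only library size scaled, the WT vehicle value passed as a fall (-0.33, edgeR adjusted p = 0.0114). In WT POVPC cells Ireb2 rose by 0.33 ± 0.11, a call lost without WT POVPC hypoxia 1 (0.28, edgeR adjusted p = 0.0568) or 2 (0.24, edgeR adjusted p = 0.0708). That call was also lost when only library size was scaled (0.24, edgeR adjusted p = 0.0709) and with the compared groups alone (0.35, edgeR adjusted p = 0.0529). The value was -0.012 without the 3 shallowest libraries, on the 1 WT POVPC hypoxia library left.

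**Figure D3:**
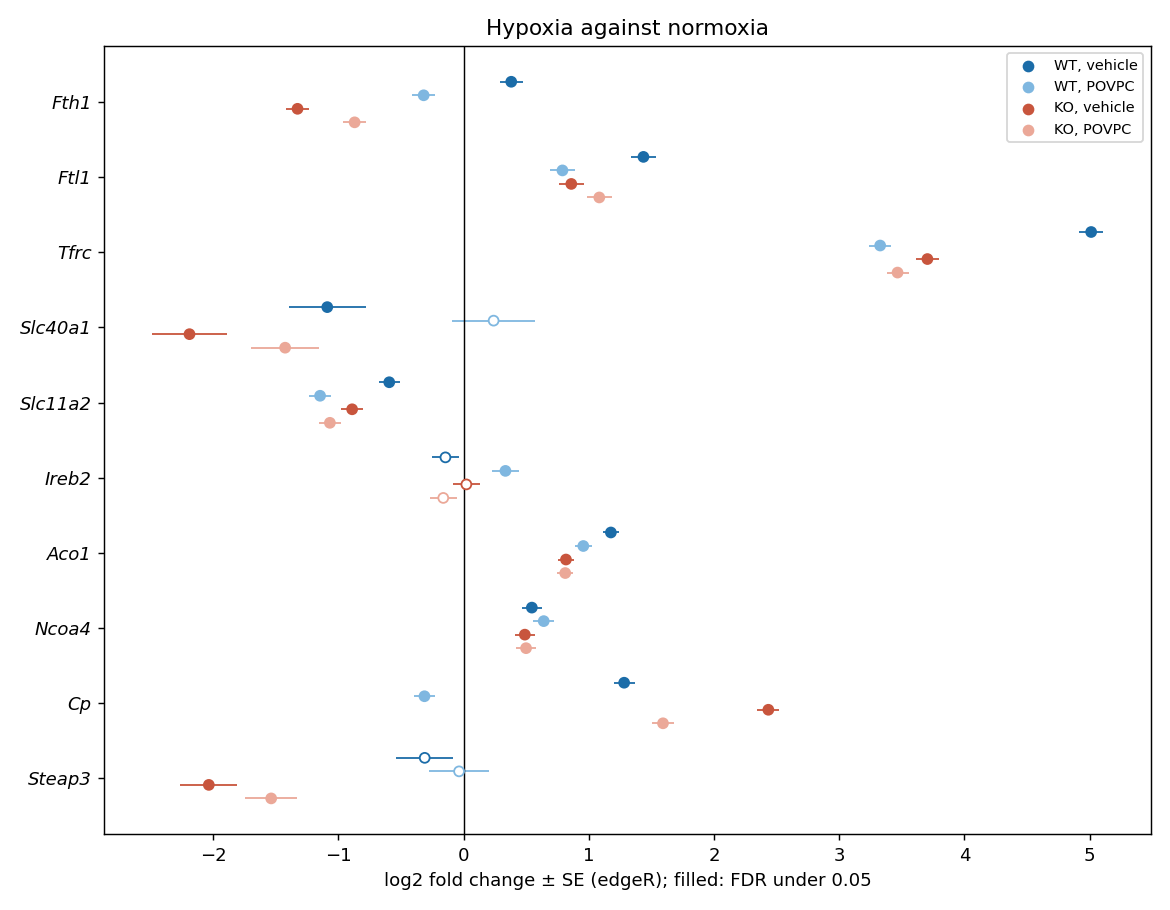
Log2 fold change of hypoxia against normoxia for the 10 iron genes in 4 settings, with SE from edgeR. Filled points passed an adjusted p under 0.05. Tfrc lies furthest right in each setting, at 3.33 to 5.01, and Fth1 lies on opposite sides of 0 in WT and KO vehicle cells.

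Counted over the 10 genes, 6 rose and 2 fell with hypoxia in WT vehicle cells, where 68.1% of all 14496 genes tested passed the same threshold, an edgeR adjusted p under 0.05 (32.8% higher and 35.3% lower). In WT POVPC cells 5 rose and 3 fell (all genes 66.1%, 31.8% higher and 34.3% lower), in KO vehicle cells 5 rose and 4 fell (all genes 65.4%, 32.6% higher and 32.8% lower), and in KO POVPC cells 5 rose and 4 fell (all genes 68.5%, 34.5% higher and 33.9% lower). Most genes passed, so these counts alone do not set the iron genes apart. The share of all genes whose groups do not overlap was not counted in cultures. Groups without overlap there therefore do not set these genes apart either. Their median log2 fold changes were 0.46, 0.29, 0.25 and 0.17, beside -0.03, -0.02, 0.02 and 0.03 over all genes. Ftl1, Tfrc, Aco1 and Ncoa4 rose, and Slc11a2 fell, in each of the 4. How many of all genes moved the same way in all 4 was not counted. As a check of the treatment, 11 of 12 known targets of hypoxia-inducible factors outside the iron genes rose in each comparison, with medians of 3.23 to 3.81. The vehicle and the POVPC comparisons use separate libraries. Markers moved with hypoxia too: the 6 fibroblast markers summed to 3327 to 4683 CPM over the normoxic and 199 to 887 CPM over the hypoxic libraries. The sum over the 8 smooth muscle markers fell too, as given above for vehicle. With vehicle, 10 cell cycle genes summed to 163 to 187 CPM in normoxia and 298 to 348 CPM in hypoxia in WT cells. In KO cells the sums were 210 to 238 and 207 to 218 CPM. With POVPC the WT sums were lower in hypoxia (237 to 256 CPM) than in normoxia (344 to 401 CPM). In WT vehicle cells 10 targets of the factor NRF2 summed to 941 to 1000.4 and 2189 to 2249 CPM. In KO vehicle cells they summed to 1287 to 1408 and 1175 to 1239 CPM. The part of all these sums in the iron gene values was not tested. The response differed between the lines for 7 of 10 genes with vehicle (1 more positive and 6 more negative in KO cells, all genes 39.1%, 19.2% higher and 19.9% lower) and for 5 of 10 with POVPC (1 and 4, all genes 30%, 15.7% higher and 14.4% lower). The Slc40a1 difference with vehicle (-1.10 ± 0.44, edgeR adjusted p = 0.0477) was close to the threshold. It lost its call when any 1 of 9 libraries was left out (each but WT vehicle normoxia 1, WT vehicle hypoxia 3 and KO vehicle hypoxia 1), with edgeR adjusted p up to 0.25 without WT vehicle hypoxia 2 (log2 -0.67). The Aco1 difference with vehicle lost its call when only library size was scaled (-0.26, edgeR adjusted p = 0.154). The Slc11a2 difference with vehicle was not called, but passed with DESeq2 (-0.32, adjusted p = 0.0146). By edgeR it passed with RLE size factors (-0.32, adjusted p = 0.0308).

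The POVPC comparisons in normoxia share their vehicle libraries with those of hypoxia. POVPC raised the transferrin receptor and both ferritin chains in normoxic WT cells, whereas 0 of the 10 genes passed in normoxic KO cells. Tfrc was at 45.8, 42.1 and 39.6 CPM with POVPC in WT normoxia, all above the 16.1 CPM mean with vehicle, and rose by 1.40 ± 0.08 on the log2 scale (edgeR adjusted p = 8.15e-14). Fth1 was at 751, 798 and 824 CPM and rose by 0.92 ± 0.09. Ftl1 was at 213, 227 and 245 CPM and rose by 0.48 ± 0.10. Every POVPC library lay above every vehicle library for these 3 genes. Without the share of all genes for which this holds, it does not set them apart. Slc11a2 (0.50 ± 0.08, 105, 104 and 98.6 CPM with POVPC) and Cp (0.45 ± 0.08, 438, 497 and 477 CPM) also rose. Aco1 rose by 0.21 and Ncoa4 fell by 0.27, both smaller, while Ireb2, Slc40a1 and Steap3 did not pass the test (-0.07, -0.58 and 0.10). Markers moved with POVPC in WT normoxia too: against vehicle, the smooth muscle sum was 160.3 to 196 beside 313 to 368 CPM, the macrophage sum 53.6 to 63.9 beside 29.5 to 32.3 CPM and the sum of 10 cell cycle genes 344 to 401 beside 163 to 187 CPM. Among the macrophage markers in cultures, Cd14 had 66 to 1638 counts, Cd68 15 to 180 and Csf1r 3 to 31, and each other at most 18. The macrophage sum is therefore mostly Cd14 and does not show macrophages. The part of all these sums in the iron gene values was not tested. In all 6 iron genes rose and 1 fell, where 26.9% of all genes passed (13.1% higher and 13.8% lower). The Aco1 call was lost without WT vehicle normoxia 1 (edgeR adjusted p = 0.113), WT POVPC normoxia 1 (0.0534) or WT POVPC normoxia 3 (0.0605), and under scaling by library size alone (0.512), and the Ncoa4 call without WT POVPC normoxia 3 (0.0919).

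In KO normoxia 0 of 10 iron genes passed with POVPC by edgeR and 0 by DESeq2, where 0.0414% of all genes passed by edgeR (0.0069% higher and 0.0345% lower), and 1 had an unadjusted p under 0.05. That gene was Cp, at 38.7, 36.9 and 38 CPM with vehicle and 39.5, 44.3 and 50.6 CPM with POVPC (0.24 ± 0.08). Tfrc was at 20.8, 23.9 and 23 CPM with POVPC beside 24.2, 18.9 and 22.5 CPM with vehicle, and these libraries overlapped. The difference between the lines in the normoxic response passed the test for Tfrc (-1.36 ± 0.12, edgeR adjusted p = 7.10e-10), Fth1 (-0.90 ± 0.13, 4.78e-06), Slc11a2 (-0.49 ± 0.12, 0.00371) and Ftl1 (-0.47 ± 0.14, 0.0196), each more negative in KO cells. These are 4 of 10, where 16.2% of all genes passed (8.17% higher and 8% lower). The Ftl1 difference lost its call without WT vehicle normoxia 1 (edgeR adjusted p = 0.061), WT POVPC normoxia 3 (0.0647), KO vehicle normoxia 2 (0.0535) or KO POVPC normoxia 1 (0.061). The Ftl1 and Slc11a2 differences lost theirs when only library size was scaled (edgeR adjusted p = 0.231 and 0.167).

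In hypoxia POVPC moved 3 of the 10 genes in WT cells and 2 in KO cells, and ceruloplasmin fell in both lines. Cp was at 367, 348 and 421 CPM with POVPC in WT hypoxia, beside 849.9, 808 and 865 CPM with vehicle, and fell by 1.15 on the log2 scale (edgeR adjusted p = 3.22e-11). In KO hypoxia it was at 148, 122 and 135 CPM with POVPC and 212, 196 and 205 CPM with vehicle, and fell by 0.60 (edgeR adjusted p = 4.78e-05). Neither pair of groups overlapped. Fth1 rose with POVPC in KO hypoxia, from 565 ± 45.7 to 788 ± 43.5 CPM (SD, n = 3, log2 0.48 ± 0.09, edgeR adjusted p = 0.00131). In WT hypoxia Fth1 was 0.22, which missed the threshold (edgeR adjusted p = 0.0762). That value passed with DESeq2 (adjusted p = 0.0319). By edgeR it also passed with RLE size factors (adjusted p = 0.0446), a filter of 5 CPM (0.0409) or halved counts (0.0393). It passed too without WT vehicle hypoxia 3 (0.0266) or WT POVPC hypoxia 2 (0.0344). Without the 3 shallowest libraries it was 0.45, on the 1 WT POVPC hypoxia library left, the highest of its group. Tfrc fell in WT hypoxia by 0.28 and Ireb2 rose by 0.41. The Tfrc call was lost without WT vehicle hypoxia 1 (edgeR adjusted p = 0.0852) and with the compared groups alone (0.0796). The Ireb2 call was lost without WT POVPC hypoxia 1 (edgeR adjusted p = 0.0523) or 2 (0.0821) and with the compared groups alone (0.0530). Without the 3 shallowest libraries, on the 1 WT POVPC hypoxia library left, the values were -0.26 for Tfrc and 0.037 for Ireb2. In WT hypoxia 1 gene rose and 2 fell (all genes 21%, 8.22% higher and 12.7% lower), and in KO hypoxia 1 rose and 1 fell (all genes 4.06%, 1.97% higher and 2.09% lower). The response in hypoxia differed between the lines for 2 of 10 genes (all genes 9.37%, 5.89% higher and 3.48% lower), Cp (0.55) and Ireb2 (-0.58), and both calls were lost without the 3 shallowest libraries, again with 1 WT POVPC hypoxia library (0.40 and -0.21).

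**Figure D4:**
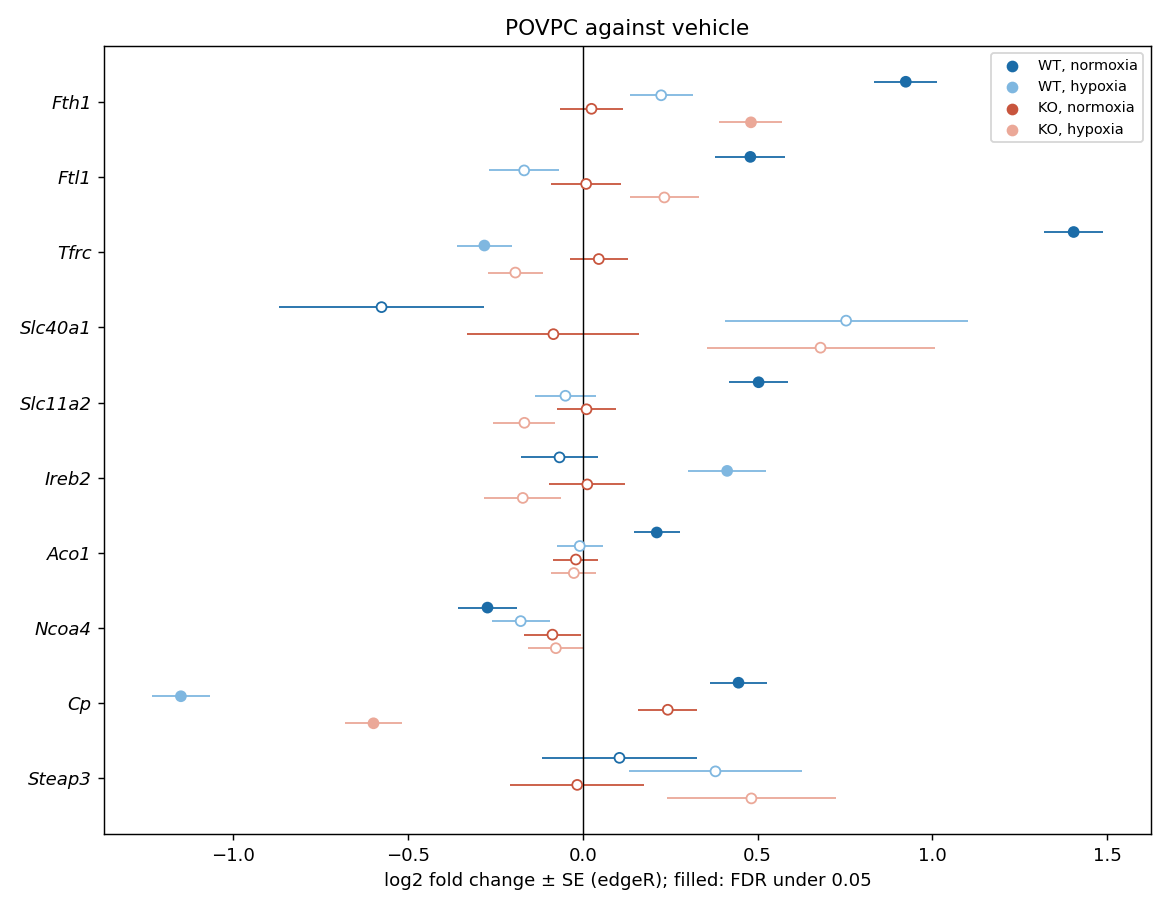
Log2 fold change of POVPC against vehicle for the 10 iron genes in 4 settings, with SE from edgeR. Filled points passed an adjusted p under 0.05. In WT normoxia Tfrc is at 1.40 and Fth1 at 0.92, and no point of KO normoxia is filled.

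The KO and WT lines differed in most of the iron genes, as they did in most genes. In vehicle normoxia 8 of 10 were higher and 1 lower in the KO line, where 60.6% of all genes passed (29.8% higher and 30.8% lower). The ferritin mRNAs stood furthest apart among the storage genes, with Fth1 at 1417 ± 64 CPM in KO and 417 ± 35.3 CPM in WT cells (1.76 ± 0.09, edgeR adjusted p = 5.47e-16) and Ftl1 at 617 ± 24.2 and 164 ± 9.7 CPM (1.91 ± 0.10, 1.54e-15, SD, n = 3). Cp went the other way and was 9.14-fold lower in KO cells (37.8 ± 0.904 against 346 ± 4.24 CPM, edgeR adjusted p = 4.34e-22). Steap3 (1.74), Aco1 (1.47) and Slc40a1 (1.35) were higher, as were Ncoa4 (0.50), Tfrc (0.45) and Ireb2 (0.31). The Ireb2 call was lost without KO vehicle normoxia 1 (0.21, edgeR adjusted p = 0.118). Slc11a2 was -0.07 ± 0.08 and did not pass.

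Some of these differences held in all 4 settings and others did not. Ftl1, Aco1 and Ncoa4 were higher and Cp lower in KO cells in each setting, with Ftl1 at 1.34 to 1.91, Aco1 at 1.10 to 1.47, Ncoa4 at 0.44 to 0.69 and Cp at -3.39 to -1.49. The share of all genes that differed the same way in all 4 was not counted. Tfrc was higher in KO cells in vehicle normoxia but lower in POVPC normoxia (-0.91), vehicle hypoxia (-0.86) and POVPC hypoxia (-0.77). Slc11a2 was lower in the same 3 settings (-0.56, -0.36 and -0.48). Slc40a1 and Steap3 were higher in KO cells in normoxia with POVPC too (1.85 and 1.62), and passed in neither hypoxia setting. Fth1 was 0.87 with POVPC in normoxia and 0.06 with vehicle in hypoxia, the latter below the threshold. In POVPC hypoxia Fth1 was 0.31, a call lost without WT POVPC hypoxia 2 (0.22, edgeR adjusted p = 0.0548) or without the 3 shallowest libraries, with 3 KO against 1 WT library (0.05). Ireb2 was higher in KO cells with POVPC in normoxia (0.39) and with vehicle in hypoxia (0.48), and -0.10 with POVPC in hypoxia, which did not pass. Ordered by mean, the 4 WT culture groups lay below the 4 KO groups for Ftl1 and for Aco1, and above them for Cp. Over the genes, 7 were higher and 3 lower with POVPC in normoxia (all genes 60.2%, 29.5% higher and 30.7% lower), 4 and 3 with vehicle in hypoxia (59.9%, 29.5% higher and 30.4% lower), and 4 and 3 with POVPC in hypoxia (57.6%, 30% higher and 27.6% lower).

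In the lesions all 10 iron genes had a higher mean in KO than in WT animals, but by edgeR 0 of 10 passed the threshold, as did 0% of all genes. At an unadjusted p under 0.05 there were 5 of 10, against 14.8% of all genes, and by DESeq2 2 of 10 passed, against 3.35%. The median log2 fold change of the 10 was 0.29, beside -0.01 over all genes. Bulk RNA cannot tell fewer cells of a type from less RNA per cell.

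Ftl1 was at 519, 804, 648 and 955 CPM in the 4 KO lesions and 402, 509, 459 and 363 CPM in the 4 WT lesions. The groups did not overlap, and the log2 fold change was 0.76 ± 0.20 (edgeR adjusted p = 0.172, DESeq2 adjusted p = 0.0115). Ncoa4 was at 46.2, 56.1, 62.6 and 56.9 CPM in KO and 35.9, 42.3, 40.7 and 40.2 CPM in WT lesions, also without overlap (0.48 ± 0.11, edgeR adjusted p = 0.17, DESeq2 adjusted p = 0.0163). Cp was at 281, 283, 295 and 266 CPM in KO and 219.8, 249.9, 244 and 225 CPM in WT, again without overlap (0.26 ± 0.09, edgeR adjusted p = 0.224). Groups without overlap were found for 8.8% of all genes. Tfrc was at 196, 241, 243 and 298 CPM in KO and 121, 158, 137 and 218 CPM in WT lesions, and WT 4 lay above KO 1 (0.62 ± 0.19, edgeR adjusted p = 0.203). Slc40a1 was at 32.1, 46.9, 55 and 41 CPM in KO and 20.6, 27.7, 34.7 and 38.3 CPM in WT (0.53 ± 0.21), and Fth1 at 1056, 1530.2, 1235 and 1696 CPM in KO and 1061, 1188, 1201 and 978 CPM in WT (0.32 ± 0.17), both with overlap. Aco1 (0.19), Slc11a2 (0.13), Steap3 (0.13) and Ireb2 (0.05) differed least. With KO 4 and WT 1 both left out, the values were 0.55 for Ftl1, 0.41 for Ncoa4, 0.40 for Tfrc and 0.17 for Fth1.

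**Figure D5:**
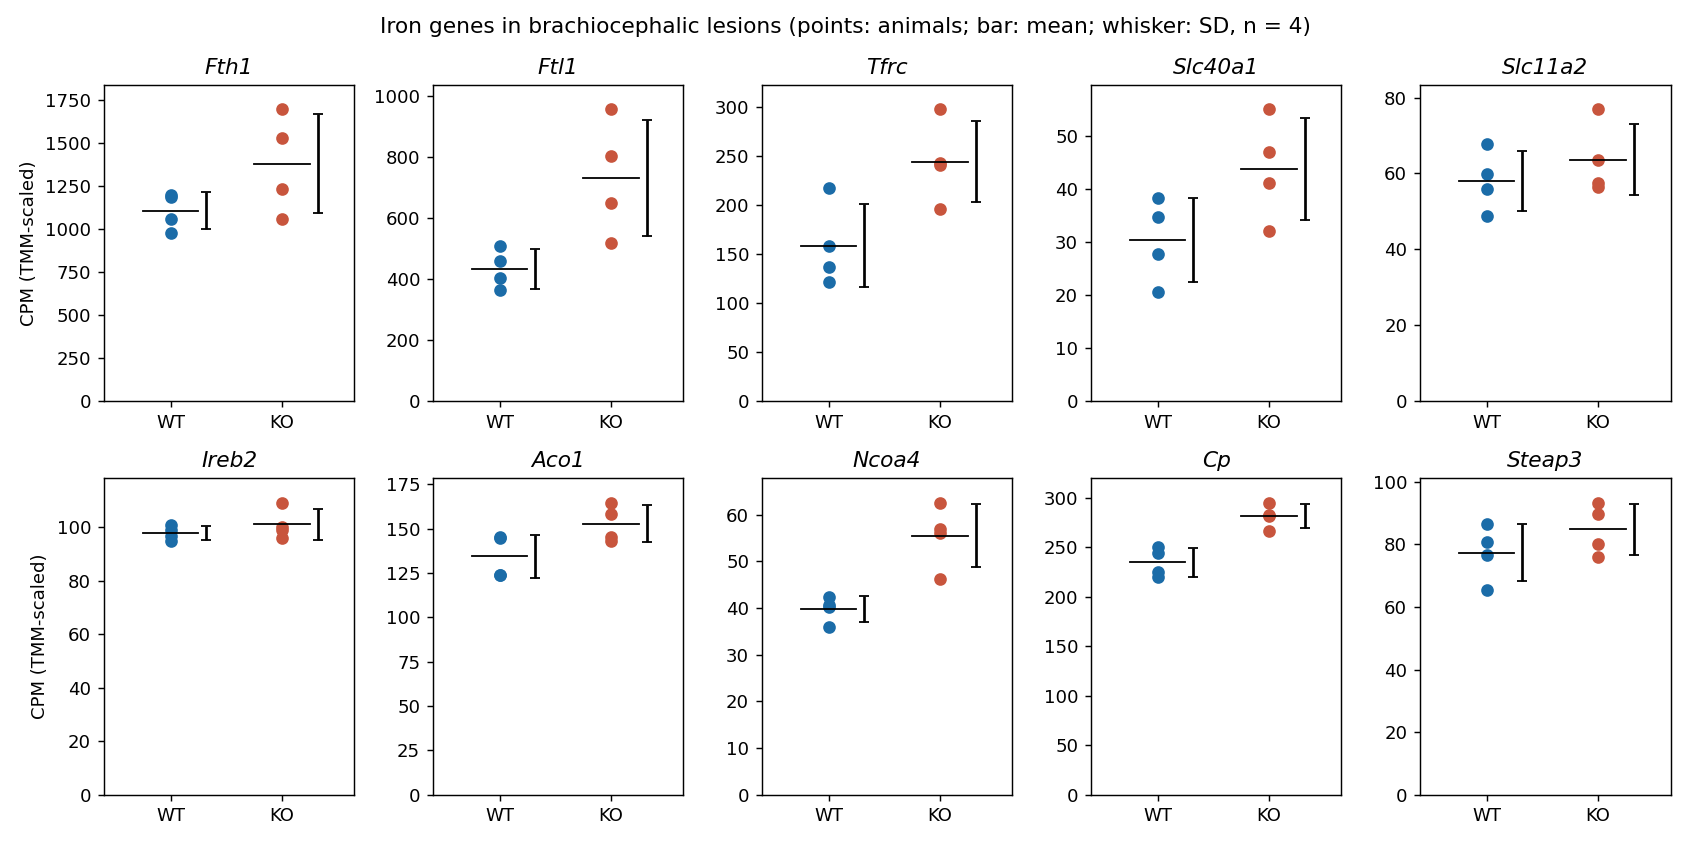
Level of each of the 10 iron genes in brachiocephalic lesions, in TMM-scaled CPM from 0, for 4 WT and 4 KO animals. Points are animals, bars are means and whiskers are the SD. Ftl1, Ncoa4 and Cp are the genes whose KO and WT points do not overlap.

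Per exonic base the Fth1 to Ftl1 ratio was 2.28, 2.13, 2.13 and 1.99 in KO lesions and 2.95, 2.61, 2.93 and 3.02 in WT lesions, every KO animal below every WT animal. Macrophages recycle iron and are known to express ferritin and ferroportin, and their markers moved with genotype. The 11 macrophage markers, all higher in KO lesions by mean, summed to 3984 to 9262 CPM in KO and 2409 to 3607 CPM in WT lesions, and the 8 smooth muscle markers to 3854 to 5749 and 5545 to 8410.0 CPM. The 6 fibroblast markers summed to 3038 to 3891 and 1714 to 3324 CPM and the 6 endothelial markers to 1517 to 1778 and 1145 to 1393 CPM. The 5 adipocyte markers summed to 2232 to 3425 CPM in KO and 1787 to 2552 CPM in WT lesions. For the 6 T cell and thymocyte markers the sums were 18.4 to 79.8 and 45.7 to 138 CPM. Their part in the lesion values was not tested. Of 7 erythroid markers, Hba-a1, Hba-a2 and Hbb-b1 were listed at 0 in every library, and the sum overlapped between genotypes (66.4 to 370.0 and 82.7 to 294 CPM).

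Lesions and cultures were counted in different ways, so levels set across them are only a description. Slc40a1 stood at 30.3 ± 7.84 CPM in WT lesions (SD, n = 4) and at 1.8 ± 0.259 CPM in WT vehicle normoxia (SD, n = 3), and Steap3 at 77.4 ± 9.03 and 3.31 ± 0.613 CPM. Tfrc in WT lesions, at 158 ± 42.2 CPM, lay between the normoxic and the hypoxic cultures. Ireb2 was at 97.8 ± 2.69 and 76.7 ± 0.216 CPM.

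Other iron genes were described from 4 lists. Beside their counts, 68.1% of all genes passed with hypoxia in WT vehicle cells (32.8% higher and 35.3% lower) and 65.4% in KO vehicle cells (32.6% higher and 32.8% lower), 26.9% with POVPC in WT normoxia (13.1% higher and 13.8% lower) and 60.6% between KO and WT in vehicle normoxia (29.8% higher and 30.8% lower). Of 16 tested genes for other iron transport, reduction and chaperoning, 3 rose and 9 fell with hypoxia in WT vehicle cells, and 6 rose and 9 fell in KO vehicle cells. Scara5, a ferritin receptor, had log2 fold changes of -6.47 in WT and -5.05 in KO cells, from 53.9 ± 3.54 to 0.611 ± 0.121 CPM and from 35.7 ± 4.47 to 1.13 ± 0.258 CPM. Steap4, a metalloreductase, fell by 5.39 in KO cells, from 7.95 ± 1.5 to 0.184 ± 0.0807 CPM. With POVPC in WT normoxia 8 of the 16 rose and 4 fell, Steap4 by 3.53 and Steap1 by 2.47 among those that rose, together with Slc39a14, a transporter of iron not bound to transferrin (0.96). Transferrin itself, Trf, was lower in KO than in WT vehicle normoxia (-2.49), and Heph, an iron oxidase like ceruloplasmin, was higher (3.34 ± 0.37, 6.12 ± 0.323 against 0.602 ± 0.164 CPM). In that comparison 6 of the 16 were higher and 7 lower in KO cells.

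Of 16 tested genes of heme breakdown, transport and synthesis, 4 rose and 5 fell with hypoxia in WT vehicle cells (all genes 68.1%) and 4 rose and 8 fell in KO vehicle cells (all genes 65.4%). Hmox1, which frees iron from heme, was at 16.6, 17.1 and 15.8 CPM in WT vehicle normoxia and 125, 102 and 131 CPM in hypoxia (2.85 ± 0.14), and rose less in KO cells (1.00 ± 0.14), a difference that passed the test (-1.85, edgeR adjusted p = 5.81e-08). POVPC raised Hmox1 by 1.46 ± 0.14 in WT normoxia. Of 15 genes of iron-sulfur cluster assembly, 7 rose and 6 fell with hypoxia in WT vehicle cells and 5 rose and 8 fell in KO vehicle cells, beside the same shares. Iscu, the scaffold of the cluster, fell in both (-1.70 and -1.95). With POVPC in WT normoxia 0 of these 15 passed by edgeR (all genes 26.9%), 1 passed by DESeq2 and 3 had an unadjusted p under 0.05. Of 10 tested iron regulators, 4 rose and 3 fell with hypoxia in WT vehicle cells (all genes 68.1%), with Hfe, which binds the transferrin receptor, at -3.74 and Nfe2l2, which encodes the factor NRF2 that drives ferritin genes, at 1.94. With POVPC in WT normoxia 9 of 10 NRF2 targets outside the iron genes rose (all genes 26.9%, 13.1% higher and 13.8% lower). In KO normoxia, where 0.0414% of all genes passed, 0 of 10 passed by edgeR or by DESeq2, and 0 had an unadjusted p under 0.05.

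In lesions 0 genes of these lists passed by edgeR, of 16, 16, 15 and 10 tested. By DESeq2 1, 2, 0 and 1 passed, beside 3.35% of all genes, and 2, 6, 2 and 3 had an unadjusted edgeR p under 0.05, beside 14.8% of all genes. Their medians were 0.03, 0.10, 0.15 and 0.14. Hmox1 was nearest, at 81.8, 88.6, 67.5 and 80.9 CPM in KO and 41, 39.7, 47.4 and 37.4 CPM in WT lesions (0.95 ± 0.11, edgeR adjusted p = 0.0575, DESeq2 adjusted p = 6.33e-09), with no overlap. Trf was at 188, 209, 206 and 183 CPM in KO and 119, 159, 127 and 145 CPM in WT, also with no overlap (0.52 ± 0.11, edgeR adjusted p = 0.17, DESeq2 adjusted p = 0.00877). The macrophage markers given above moved with these genes too.

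The genes whose log2 CPM followed each iron gene most closely over the 24 culture libraries were named by Pearson's r, as a description over libraries that share treatments and lines. For Tfrc they included Idi1 (r = 0.995) and Mthfd1l (0.993). For Aco1 they were Akt1 (0.992), Arl2bp (0.990) and Cdc42ep2 (0.987), and for Ftl1 Akt1 (0.984), Aco1 (0.984) and Cdc42ep2 (0.984), so 1 pair of these came from within the 10 genes. Slc40a1 and Steap3, both higher in KO than in WT normoxia, each had Nfkbia among their nearest 3 (0.907 and 0.934). The nearest gene was Fosl2 for Fth1 (0.958), Slc44a2 for Slc11a2 (0.979), Stt3b for Cp (0.983), Ubtd2 for Ncoa4 (0.970), AI646023 for Steap3 (0.944) and Agtpbp1 for Ireb2 (0.845). Ireb2 thus had the loosest match of the 10, as it also had the narrowest range.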

How the data were processed

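Counts per gene were deposited as 2 tables, 1 for lesions and 1 for cultures. Per the file headers, the authors made them with featureCounts 1.4.4 over UCSC mm9 exons grouped by gene name, without strand, counting fragments in lesions and, from the command line given, each mate as a read in cultures. Per the submitters' processing notes CASAVA, STAR and DESeq2 were also used. Genes were kept by filterByExpr (minimum count 10, minimum total 15), scaled by TMM and tested with edgeR 4.0.16 (quasi-likelihood, robust, R 4.3.3) in 1 model per table, 2-sided, with Benjamini-Hochberg adjustment over all genes tested and a threshold of 0.05. There were 17 comparisons: 1 in lesions, 12 in cultures and 4 tests of a difference between responses. SE is the log2 fold change divided by the root of F. CPM is scaled by TMM, and RPKM divides it by the exonic length in the deposited tables. The 10 genes and all lists were chosen with earlier results of these data known. All 10 are named, and of the other lists mainly genes with the smallest p. Likeness used log2 CPM with a prior count of 2. 1 of the genes it named is not reported here. The test was checked on simulated data. Alternatives were DESeq2 1.42.0, other scalings and filters, a minimum fold of 1.5 (treat in edgeR), the compared groups alone, a replicate block and leaving out each library. The 3 shallowest culture libraries, lesions KO 4 and WT 1, and halved culture counts were alternatives added after seeing the data. Depth limits precision most for Slc40a1 and Steap3 in cultures.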

Additional observations from a re-analysis of the deposited data

Results flagged for a closer look

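For 18 of the 40 tests that compare the 2 lines' responses over the 10 iron genes, the edgeR test of the difference passed the threshold on the log2 scale. Each line is 1 culture line, so these differences cannot be told apart from differences between lines. Values below are the log2 response of KO minus that of WT cells. For hypoxia with vehicle they were -1.72 for Steap3, -1.71 for Fth1, -1.31 for Tfrc, -1.10 for Slc40a1, -0.58 for Ftl1 and -0.36 for Aco1, and 1.15 for Cp. For hypoxia with POVPC they were -1.67 for Slc40a1, -1.50 for Steap3, -0.55 for Fth1 and -0.50 for Ireb2, and 1.91 for Cp. The Ireb2 value lost its call without the 3 shallowest libraries, where WT POVPC hypoxia is 1 library (-0.18, edgeR adjusted p = 0.456). For POVPC in normoxia they were -1.36 for Tfrc, -0.90 for Fth1, -0.49 for Slc11a2 and -0.47 for Ftl1. For POVPC in hypoxia they were -0.58 for Ireb2 and 0.55 for Cp. A lesion library counted as far from the others when its gap to the nearest was large against the range of its group. By this rule 0 of 24 groups of lesion values held such a library. The Tfrc to Fth1 ratio of lesion WT 4 fell barely short of the cutoff, at 0.0392 beside 0.0201, 0.0234 and 0.0201 in the other WT lesions. Culture groups were not screened in this way.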

How the results depend on the processing

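Over all alternatives, 1612 of 1703 values of the 10 genes that were called kept their call and direction, 90 lost the call and 1 reversed. The reversal was Ireb2 under hypoxia in WT POVPC cells, at -0.0117 (edgeR adjusted p = 0.951) without the 3 shallowest culture libraries, a fit that leaves WT POVPC hypoxia with 1 library, assumed to vary like the other groups. The cause was not tested. With DESeq2 97 of 97 calls were kept, and with culture counts halved 96 of 97. Among values that were not called, 29 became called and 86 changed sign.

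In lesions DESeq2 called 2 of the 10 genes, against 0 by edgeR, and over all genes 447 against 0, while edgeR without a filter on low counts called 11. A test against a minimum fold of 1.5, which by its construction calls fewer genes, left 4 for KO against WT in vehicle hypoxia and 4 in POVPC hypoxia, 2 for POVPC in WT normoxia, 1 in WT hypoxia and 0 in KO hypoxia, and 5 for hypoxia in WT vehicle and 4 in WT POVPC cells. For the differences between the lines it left 1 for POVPC in normoxia, 0 for POVPC in hypoxia, 4 for hypoxia with vehicle and 3 for hypoxia with POVPC. Over all genes it left 230 of 3037 for POVPC in WT hypoxia, 884 of 3896 in WT normoxia, 0 of 6 in KO normoxia and 1 of 588 in KO hypoxia, 3013 to 3586 of 8351 to 8778 for KO against WT, 4453 to 5049 of 9481 to 9924 for hypoxia, and 601 of 2344, 101 of 1358, 1882 of 5670 and 1193 of 4354 for the differences, in the order above.

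Fitted on the compared groups alone, POVPC in WT hypoxia had 1 iron gene called (all genes 1720), and the difference for POVPC in hypoxia had 828 genes of all. Scaling by library size alone gave 2 for the difference in POVPC response in normoxia and 1, Cp, in hypoxia, so the split there went from 1 higher and 1 lower to 1 and 0. It moved the median of all genes by -0.18 for hypoxia in WT vehicle cells, -0.14 for KO against WT in vehicle normoxia, -0.11 for POVPC in WT normoxia, and 0.17 and 0.10 for the differences in POVPC response in normoxia and in hypoxia response with vehicle. Without the 3 shallowest culture libraries, and so with 1 WT POVPC hypoxia library, hypoxia in WT POVPC cells had 5 iron genes called and the difference in POVPC response in hypoxia 0, with 426 of all genes there and 1073 for POVPC in WT hypoxia. For POVPC in KO normoxia DESeq2 called 23 genes of all, 3 passed with library size alone or without robust estimation, 0 with the compared groups alone, and 310 without KO vehicle normoxia 3 (1 to 3 without KO vehicle normoxia 1 or 2 or any KO POVPC normoxia library). For POVPC in KO hypoxia DESeq2 called 991, library size alone 341, and leaving out KO vehicle hypoxia 2, KO vehicle hypoxia 3 or KO POVPC hypoxia 3 gave 269, 374 or 300. Leaving out 1 library gave 1 to 4 iron genes for the difference in POVPC response in hypoxia, with 1 without WT POVPC hypoxia 1 or 2 or KO POVPC hypoxia 1 and 4 without WT POVPC hypoxia 3. The causes were not tested.

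Libraries with the same replicate number did not deviate together: their correlations were -0.239 to 0.332 in cultures (median 0.0165, 84 pairs) and -0.644 to 0.114 in lesions (4 pairs). With the replicate number as a block, 97 of 97 calls of the 10 genes were kept, and 0 iron genes were called in lesions.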
